A study of Drosophila melanogaster with 6 samples.

Results

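The genes described here are those of the fourth chromosome of Drosophila melanogaster, the smallest autosome of the fly. A gene was taken when an annotation of the array's probe sets named it alone for at least 1 probe set and a RefSeq gene table placed it on chromosome 4. Of 65 such genes, 60 also had a probe set that reached the 40th percentile of its array on at least 3 of the 6 arrays, and these 60 stand against 8764 genes tested in all. The RefSeq table lists 80 protein-coding genes on this chromosome, and 15 of them, among them pan, pho, RpS3A, CaMKII and lgs, were not analysed here. RNA from ovaries of bam[delta86] females was compared with RNA from ovaries of females mutant for both stwl and bam, with 3 samples of each genotype and 1 array per sample. Both genotypes are thus mutant for bam, which germline stem cell daughters need in order to differentiate, and the second is also mutant for stwl, whose nuclear protein binds DNA and without which germline stem cells are lost. The labels give neither the stwl allele, nor the bam allele of the second genotype, nor the age of the flies. All flies were kept on cornmeal and molasses food with dry yeast.

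The fourth chromosome is largely heterochromatic. Its genes lie among repeats in chromatin that carries HP1a and methylated lysine 9 of histone H3, yet many of them are expressed, and Pof is a protein that binds their transcribed bodies. Many of these genes have long introns, so their length in the genome is large. They encode developmental regulators such as ci and ey, and also housekeeping proteins such as the beta subunit of ATP synthase.

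The arrays gave median intensities of 26.1 to 39.8, and 50.8% to 64.5% of probe sets lay above background on their array. Background was set on each array at the 95th percentile of its 44 bacterial and tag control sets. RNA quality controls differed between the genotypes: the ratio of 5' to 3' signal ran from 0.129 to 0.183 in bam and from 0.524 to 0.675 in stwl bam for actin, from 0.0798 to 0.108 and from 0.417 to 0.448 for eIF-4a, and from 0.124 to 0.152 and from 0.258 to 0.374 for GAPDH. Each had an exact two-sided permutation p of 0.1, the smallest that 3 against 3 arrays allow, and the part of this difference in the gene values below was not tested. The germ cell genes ovo, otu, aub, bgcn and zpg lay above background on all 6 arrays. Summed levels of the germ cell markers were 6238 to 6962 intensity units in bam and 4543 to 5222 in stwl bam, with 2 of 5 tested lower. Those of the haemocyte markers were 6655 to 7049 and 3843 to 4715, with 4 of 7 tested lower, and in neither list did the genotypes overlap. The listed germ cell symbol nos matched more than 1 gene. The germ cell sum took Nos on arm 2L for it, which was not tested, and so left out the germ cell gene nanos. Follicle cell markers summed to 25601 to 30055 and 8592 to 30578, with 1 of 6 tested lower and a median change of -0.98. Their stwl bam arrays differed widely: Yp1 read 13.30, 13.16 and 13.22 in bam and 11.54, 13.25 and 11.87 in stwl bam (log2 level, replicates 1 to 3). Testis markers summed to 927 to 1065 and 1642 to 1763, with 1 of 4 tested higher, 1 lower, and Mst87F and dj below background on all arrays. The part of these lists in the falls and rises below was not tested. The stwl probe set read 6.64, 6.45 and 6.34 on the bam arrays and 6.28, 6.48 and 5.75 on the stwl bam arrays (log2 level), with a limma adjusted p of 0.396. The bam probe set read 6.80, 6.75 and 6.83 against 8.59, 7.47 and 8.21. Which parts of these transcripts the probe sets cover is not known here, so neither checks the labels.

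Of the 60 genes, 15 were lower in stwl bam, 5 were higher and 40 did not pass (limma, adjusted p under 0.05). Over all 8764 tested genes 13.0% were lower and 11.1% were higher. The lower genes were fuss, Cadps, yellow-h, mGluR, Mitf, Slip1, Asator, mav, Zip102B, Ank, Gyf, eIF4G1, Taf3, ci and Zyx, and the higher ones were apolpp, CG33521, Pur-alpha, gw and, by 1 of its 2 probe sets, ATPsynbeta. The other probe set of ATPsynbeta fell, and with the mean over each gene's probe sets 4 genes were higher and 15 lower. With the probe set of highest mean for each gene, the changes of the 15 lower genes ran from -0.32 (Zyx) to -1.52 (fuss) on the log2 scale. Of these 15 falls 13 were smaller than 1. Changes of at least 2-fold were found for 2 higher genes and 2 lower genes, where 3.02% and 2.21% of all tested genes passed with such changes. For 24 of the 60 genes the 3 bam values and the 3 stwl bam values formed separate ranges, with stwl bam above for 6 and below for 18, while over all tested genes this held for 42.7%, with stwl bam above for 19.6% and below for 23.1%. The number called lower was smaller when some single arrays were left out. It was 7 without bam replicate 1 and 9 without bam replicate 3. With the deposited intensities used without normalization, where bam replicate 1 has a lower mean, 9 were lower and 5 higher. The share of all tested genes that were lower fell under the same settings, to 6.37%, 7.78% and 8.85%.

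**Figure D1:**
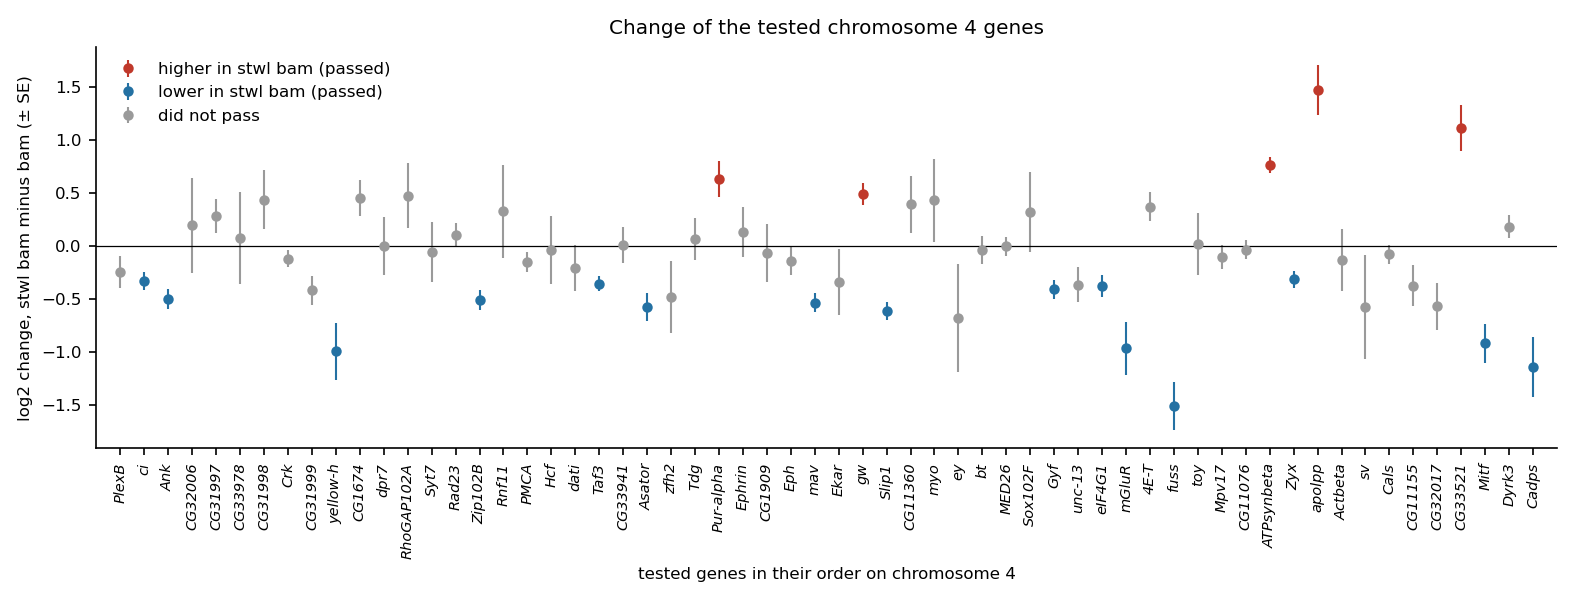
Log2 change (stwl bam minus bam) with its standard error for each of the 60 tested genes, in their order along chromosome 4; blue and red mark genes that passed limma's adjusted p. The lower genes and the higher genes lie interspersed along the chromosome, and fuss at -1.52 and apolpp at 1.47 mark the ends of the range.

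The whole set was shifted little. The median change of the 60 genes was -0.09 on the log2 scale, against -0.04 over all tested genes, and their middle 50% ran from -0.42 to 0.18, against -0.34 to 0.25. Negative changes were found for 38 genes and positive ones for 22. Positive changes thus made up 36.7% of the 60 genes, against 46.2% of all tested genes. Each gene was also set against its own mean over the 6 arrays, and the median of these deviations was taken over the 60 genes on each array. It was 0.09, -0.04 and 0.14 on bam replicates 1 to 3 and -0.03, -0.14 and -0.04 on stwl bam replicates 1 to 3. The genotypes overlap in this measure, since bam replicate 2 lies below stwl bam replicate 1. Without bam replicate 2 the median change was -0.19, and with intensities as deposited it was -0.0036, against 0.05 over all tested genes.

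Set beside the other chromosome arms, chromosome 4 had 25% of its tested genes lower, where the X and the arms of chromosomes 2 and 3 had between 12.2% (X) and 14.7% (2R). The share of higher genes was 8.33%, ATPsynbeta included, against 9.39% (2R) to 14.9% (X). With the mean over each gene's probe sets it was 6.67%. These shares are descriptions. Chromosome 4 has 60 tested genes and each of the other arms has at least 1447, and no test between arms was made.

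Gene length moves with these shares. Length here is the span of a gene in the RefSeq table of the Release 6 assembly, introns included. The 60 genes had a median of 11310 bases, against 2575 for the other 8662 tested genes with a length. All of these genes were put into 5 groups of equal number by length, and 40 of the 60 fell into the longest group, 11 into the next and 9 into the other three. In the longest group, of genes over 7632 bases, 23.0% of the other genes were lower and 6.74% were higher, and their median change was -0.23. Of the 40 chromosome 4 genes there, 10 were lower and 3 were higher, with a median of -0.18. In the shortest group 3.79% of the other genes were lower and 16.6% were higher.

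**Figure D2:**
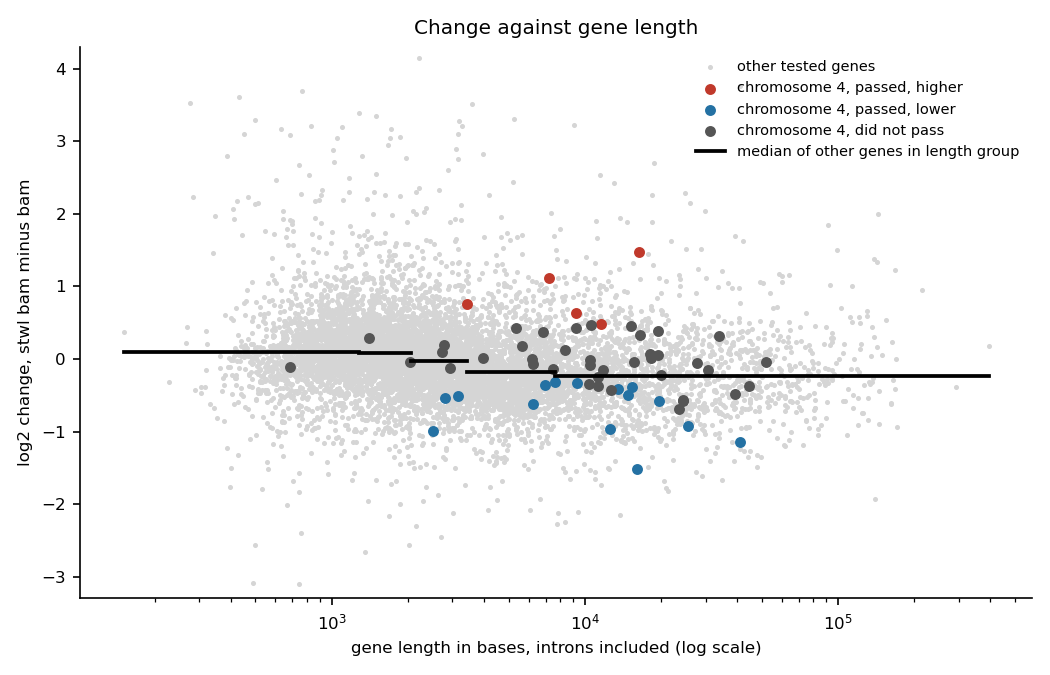
Log2 change (stwl bam minus bam) against gene length in bases on a log axis, for the 60 chromosome 4 genes and for the other tested genes in light grey. Black bars give the median of the other genes in each of 5 length groups, which goes from 0.10 in the shortest to -0.23 in the longest, and the chromosome 4 genes lie mostly at the long end.

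When the other genes were weighted to the lengths of the chromosome 4 genes, 20.9% of them were lower and 7.57% were higher, against 25% and 8.33% on chromosome 4. The summed shares were 28.5% and 33.3%. That gap of 4.83 percentage points was 4.48 with 10 length groups and 8.56 with no filter on dim probe sets, and turned to -0.86 with intensities as deposited. Against the median of other genes in its own length group, the change of a chromosome 4 gene was higher for 33 of the 60, with a median difference of 0.08. Across the 60 genes Spearman's rho between length and change was -0.24, and across the other 8662 it was -0.26. Genes share arrays and are not independent, so these are descriptions. Not every lower gene was long: in the group of 2064 to 3420 bases 3 of 6 chromosome 4 genes were lower, namely yellow-h, mav and Zip102B, where 9.49% of the other genes were.

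**Figure D3:**
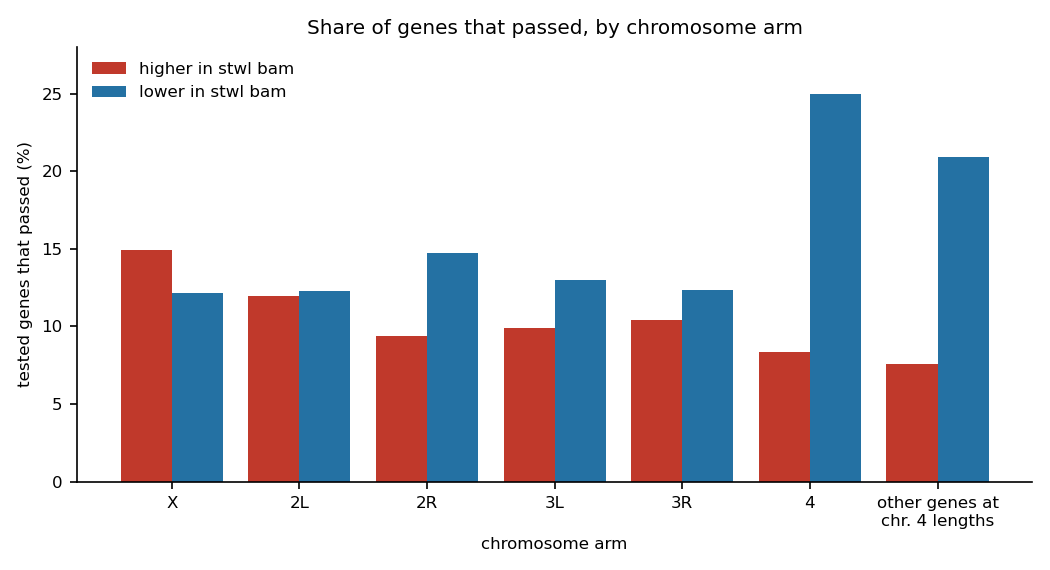
Percentage of tested genes that were higher (red) or lower (blue) in stwl bam on each chromosome arm, with the other genes weighted to the lengths of the chromosome 4 genes at the right. The lower share of 25% on chromosome 4 stands above the 12.2% to 14.7% of the other arms and nearer to the 20.9% of genes of like length.

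Among 10 tested transcription factor genes 3 fell, 1 rose and 6 did not pass, with a median change of -0.41. The counts of this group and the later ones stand beside 13.0% lower and 11.1% higher over all tested genes. In the longest length group 23.0% of the other genes were lower and 6.74% higher. No group was tested as a set. The gene fuss, which encodes a Ski family co-repressor, read 7.18, 7.45 and 7.04 in bam and 5.82, 5.35 and 5.95 in stwl bam (log2 level, replicates 1 to 3). All stwl bam arrays lay more than 1 below all bam arrays, and it fell by 1.52 ± 0.22 (SE) with a limma adjusted p of 0.00283. Mitf, a regulator of lysosome genes, read 7.45, 7.45 and 7.05 against 6.54, 6.41 and 6.23, and fell by 0.92 ± 0.19. The transcriptional effector of Hedgehog signalling, ci, fell by 0.33 ± 0.09, from 10.68 ± 0.09 (SD, n = 3) to 10.35 ± 0.10.

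Pur-alpha, which encodes a protein that binds single-stranded nucleic acids, rose. It read 8.87, 8.28 and 8.93 in bam and 9.29, 9.26 and 9.42 in stwl bam, so that bam replicate 2 was the lowest array and the genotypes did not overlap. The change was 0.63 ± 0.17 (SE). The eye selector genes ey and toy and the zinc finger gene dati were at -0.68, 0.01 and -0.21, and did not pass. The Pax gene sv, the homeodomain gene zfh2 and the Sox gene Sox102F were at -0.58, -0.49 and 0.32, below background on 5, 4 and 4 of the 6 arrays. The call of ci ended without bam replicate 1 or 3 or stwl bam replicate 2 or 3, at changes of -0.30, -0.31, -0.29 and -0.32. That of Pur-alpha ended without bam replicate 1 (0.71) or stwl bam replicate 3 (0.58), and that of Mitf without bam replicate 1 (-0.86). With intensities as deposited ci was at -0.27 and did not pass.

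None of the 5 tested genes listed under chromatin and DNA passed in limma, and 0 did at an unadjusted p under 0.05 or with a test that does not pool across genes. Over all 8764 tested genes 3341 had an unadjusted limma p under 0.05. Rad23, a ubiquitin shuttle and DNA repair factor, was at 0.10 ± 0.11 (SE), the Mediator subunit gene MED26 at -0.01 ± 0.09, and the DNA glycosylase gene Tdg at 0.06 ± 0.20. Hcf, which encodes a host cell factor in chromatin complexes, lay below background on 5 of the 6 arrays. Outside that list Taf3, which encodes a subunit of the general factor TFIID, fell by 0.36 ± 0.07. It read 11.02, 11.00 and 11.07 in bam and 10.69, 10.59 and 10.73 in stwl bam, a narrow spread in both genotypes. With intensities as deposited Taf3 was at -0.31 and did not pass.

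Of 7 genes for signalling ligands and receptors 1 fell and 6 did not pass. It was mav, which encodes a ligand of the TGF-beta superfamily, at 9.70, 9.68 and 9.74 in bam and 9.13, 9.08 and 9.29 in stwl bam. It fell by 0.54 ± 0.09 (SE) with a limma adjusted p of 0.00522. The related ligand genes myo and Actbeta were at 0.43 ± 0.39 and -0.14 ± 0.30, each with 1 bam array below background. The calsyntenin gene Cals was at -0.08, the semaphorin receptor gene PlexB at -0.25, and the receptor Eph and its ligand Ephrin at -0.15 and 0.13. Both further kept probe sets of PlexB were negative too, at -0.23 and -0.43.

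Genes with synaptic or calcium roles gave 2 falls among 6 tested, and 4 did not pass. Cadps, which encodes an activator of dense core vesicle release, read 8.90, 8.66 and 7.84 in bam and 7.62, 6.93 and 7.42 in stwl bam. Its bam replicate 3 lay close to stwl bam replicate 1, and it fell by 1.14 ± 0.28 (SE). A second Cadps probe set was at -0.79 and did not pass. The metabotropic glutamate receptor gene mGluR fell by 0.97 ± 0.25, from 6.38, 6.43 and 6.70 to 5.38, 5.28 and 5.94. The calcium pump gene PMCA, unc-13, which encodes a vesicle priming factor, and the glutamate receptor gene Ekar were at -0.15, -0.37 and -0.34.

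These calls ended when some single arrays were left out, with changes that stayed negative. That of Cadps ended without bam replicate 1 or 2 or stwl bam replicate 3, at -0.93, -1.05 and -1.19, and that of mGluR without any single bam array, at -1.03, -1.01 and -0.87 for replicates 1 to 3. Over all tested genes the share that was lower went from 13.0% to 6.37% without bam replicate 1. mGluR also did not pass under median centring (-0.89), rescaling to 1 trimmed mean (-0.87) or the deposited intensities (-0.82). Without the filter on dim probe sets neither mGluR nor eIF4G1 passed, with limma adjusted p-values of 0.066 and 0.051. Of 7 neuron marker genes 6 had a probe set, with summed levels of 139 to 147 intensity units in bam and 138 to 204 in stwl bam, and nSyb and para lay below background on all arrays. Of the 3 neuron markers tested, 1 was higher and 1 lower, and their part in the synaptic values was not tested.

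Of 4 genes for translation and mRNA control 2 fell, 1 rose and 1 did not pass. The rise was that of gw, which encodes the GW182 partner of Argonaute in microRNA silencing. It read 10.51, 10.46 and 10.52 in bam and 11.17, 10.99 and 10.79 in stwl bam, a change of 0.49 ± 0.10 (SE). Gyf, which encodes a GYF domain repressor of mRNAs, fell by 0.41 ± 0.09, from 10.82 ± 0.11 (SD, n = 3) to 10.41 ± 0.10. eIF4G1, the scaffold of the cap-binding complex, fell by 0.38 ± 0.10, and its stwl bam replicate 1 at 11.41 stood just under the lowest bam array at 11.49. The eIF4E-binding protein gene 4E-T was at 0.37 ± 0.14 with a limma adjusted p of 0.0897. The call of eIF4G1 ended on leaving out any single array but stwl bam replicate 1, at -0.32 to -0.42. It also ended under median centring (-0.36), rescaling (-0.35) and the deposited intensities (-0.29). The call of Gyf ended without bam replicate 1, at -0.35.

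All 4 tested genes for metabolism and transport passed, 2 in each direction, though the direction of ATPsynbeta differed between its probe sets. Over all tested genes 24.1% passed in either direction. apolpp, which encodes the precursor of the main lipid carrier proteins of the haemolymph, read 8.20, 8.89 and 8.27 in bam and 10.17, 9.46 and 10.14 in stwl bam. Among the representative probe sets of the 60 genes it rose the most, by 1.47 ± 0.23 (SE), with a limma adjusted p of 0.0038. It is known as a product of the fat body, and 7 fat body markers were listed, of which 6 were tested: Tsf1 and Obp99c rose, NLaz fell, and Lsp2, Fbp1 and Fbp2 did not pass. The summed level of these 6 was 946 to 1542 intensity units in bam and 2173 to 5415 in stwl bam, and none lay below background on all arrays. The median change of the 6 was -0.44, since Tsf1 and Obp99c were at 3.21 and 3.51 and the other 4 were negative, from -0.35 to -0.93. Their part in the apolpp value was not tested, and in whole ovaries more cells of a type and more RNA per cell cannot be told apart.

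Zip102B, which encodes a zinc transporter of the ZIP family, fell by 0.51 ± 0.09 (SE), from 9.65, 9.52 and 9.52 to 9.0, 9.16 and 9.0. yellow-h, a member of the yellow family, fell by 1.0 ± 0.27, from 8.48, 8.09 and 8.23 to 7.80, 6.65 and 7.36. The stwl bam arrays of yellow-h spread over more than 1 on the log2 scale. Its call ended without any single bam array or without stwl bam replicate 3, at -0.89, -1.09, -1.01 and -1.04.

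ATPsynbeta, the catalytic subunit of mitochondrial ATP synthase, is the gene whose probe sets contradicted each other. The probe set with the higher mean rose from 11.86, 11.75 and 12.00 in bam to 12.60, 12.62 and 12.66 in stwl bam, by 0.76 ± 0.07 (SE), and its limma adjusted p was 0.000438. Its other probe set fell, from 11.80, 11.78 and 11.25 to 11.13, 10.89 and 10.89, for which limma gave -0.64 ± 0.15 and an adjusted p of 0.0171. Neither was near background, and the genotypes did not overlap in either. With both averaged the change was 0.06 and did not pass. No direction for the gene as a whole can be given from these arrays.

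Such disagreement was looked for in the 10 genes with more than 1 kept probe set. Rnf11, a RING finger gene, was at 0.32 ± 0.44 (SE) with its representative probe set, while another rose by 1.94 ± 0.39, from 6.13, 6.42 and 6.14 to 8.92, 7.16 and 8.43, with a limma adjusted p of 0.00943. For CG11360 the representative was at 0.39 ± 0.27 and another probe set rose by 0.84 ± 0.22. PMCA had probe sets at -0.15, -0.57 and 0.26, none of which passed, and CG11155 had -0.38 and 0.10. In CG1674, CG33978, PlexB, RhoGAP102A and Cadps all kept probe sets had the same sign. For 19 of the 60 genes the probe set carries the maker's suffix _s for probes shared between transcripts, 5 of them among the 20 that passed. Signal from several transcripts cannot be told apart there. Probe sets with the suffix _a were not counted, among them those of Asator and Cadps and the rising one of ATPsynbeta.

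In the group of kinase, cytoskeleton and traffic genes 4 of 8 fell and none rose. Over all tested genes 13.0% were lower and 11.1% higher. Slip1, which encodes a partner of the Slowpoke potassium channel, read 10.59, 10.49 and 10.38 in bam and 9.88, 9.84 and 9.89 in stwl bam. It fell by 0.62 ± 0.08 (SE) with a limma adjusted p of 0.00183, the lowest among the 15 lower genes. Ank, the ankyrin that ties membrane proteins to spectrin, read 11.46, 11.31 and 11.17 against 10.93, 10.72 and 10.78, and fell by 0.50 ± 0.09. Asator, a tau-tubulin kinase relative, fell by 0.58 ± 0.14 and the zyxin gene Zyx by 0.32 ± 0.08, and neither overlapped between genotypes.

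The adaptor gene Crk was at -0.12, the kinase gene Dyrk3 at 0.18 and RhoGAP102A at 0.47, and none of them passed. bt, which encodes the giant muscle protein projectin, read 11.90, 11.81 and 11.86 in bam and 12.14, 11.53 and 11.78 in stwl bam, a change of -0.04 ± 0.14 (SE). Of 8 muscle markers 5 were tested and 3 of these rose, with summed levels of 10642 to 13633 intensity units in bam and 13652 to 17493 in stwl bam. The call of Asator ended without bam replicate 1 or 3 or stwl bam replicate 3, at -0.59, -0.51 and -0.55, and that of Zyx without bam replicate 2 or 3 or stwl bam replicate 3, at -0.31, -0.28 and -0.32. With intensities as deposited they were at -0.48 and -0.26 and did not pass.

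**Figure D4:**
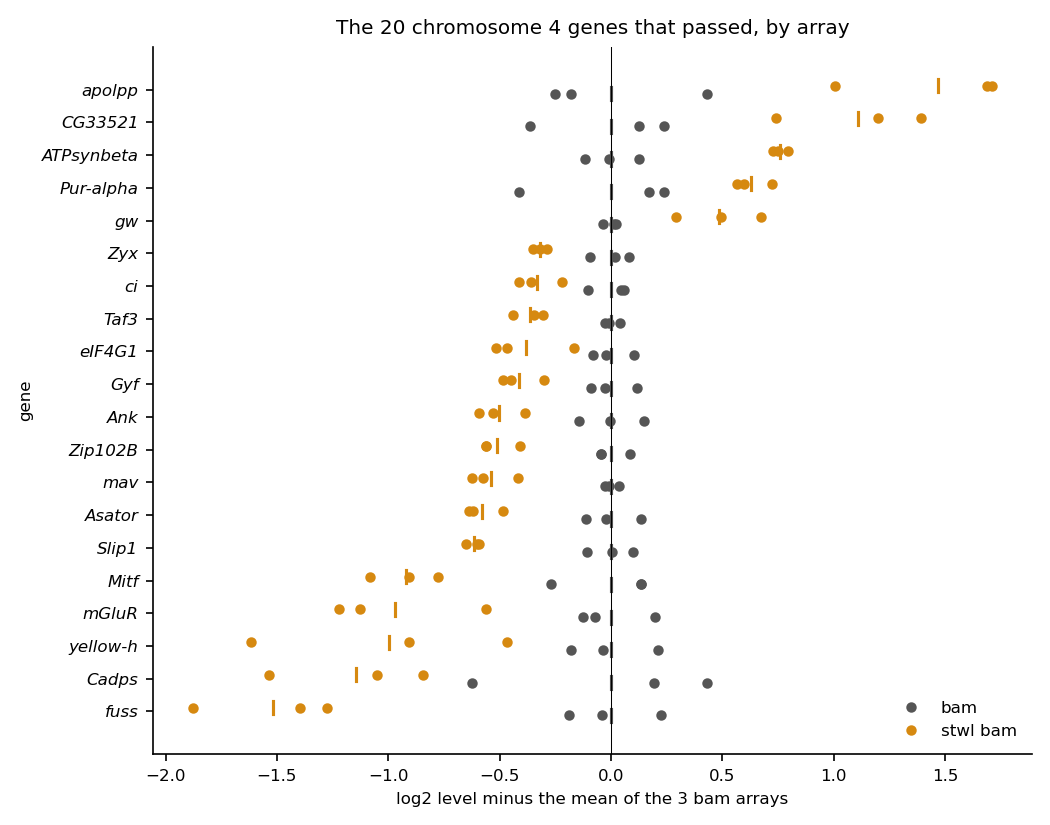
Log2 level on each array minus the mean of the 3 bam arrays for the 20 genes that passed; points are arrays (bam grey, stwl bam orange) and bars are means of 3. The genotypes do not overlap for any of the 20, with narrow spreads for Slip1 and Taf3 and wide ones for yellow-h and Cadps. These genes were picked by limma on the same arrays, so their separate ranges are no further evidence. Over all tested genes 42.7% had separate ranges.

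The other 16 genes belong to none of these groups. Beside Taf3, CG33521 passed: it read 7.64, 7.15 and 7.76 in bam and 8.71, 8.26 and 8.91 in stwl bam, a rise of 1.11 ± 0.21 (SE) with a limma adjusted p of 0.00801. The 14 others did not pass, CG31999 at -0.42 with a limma adjusted p of 0.0563 and CG1674 at 0.45 with 0.0923 being the nearest. CG31999 passed under 5 alternatives, among them median centring, rescaling and leaving out stwl bam replicate 3, at -0.48, -0.46 and -0.53. CG1674 passed under 3, with array weights, with a replicate block and on leaving out stwl bam replicate 2, at 0.51, 0.45 and 0.63.

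Among 59 pairs of tested genes next to each other on the chromosome, 27 had changes of the same sign. Of the 60 changes 22 were positive and 38 negative. The share of such pairs in a random order or on other arms was not computed, so the counts of pairs are descriptions. In 6 pairs both genes had passed. In 2 of these the directions were the same, ci with Ank and eIF4G1 with mGluR, all lower. In the other 4 they were opposite: gw rose beside Slip1, ATPsynbeta and apolpp rose on either side of Zyx, and CG33521 rose beside Mitf. Genes that were not tested can lie between the members of such a pair, and the sign of ATPsynbeta depends on the probe set.

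Of 7 factors known to act on chromosome 4 or its heterochromatin, 4 were tested and 0 passed in limma. At an unadjusted limma p under 0.05 there were 2, where 3341 of all 8764 tested genes had such a p. A test without pooling across genes called 0. The listed genes egg, Su(var)3-9 and G9a had no probe set that named them alone and were not tested. Pof read 8.35, 8.25 and 8.54 in bam and 8.35, 8.60 and 8.60 in stwl bam, a change of 0.14 ± 0.13 (SE). The gene for HP1a read 11.29, 11.40 and 11.47 against 11.54, 11.69 and 11.61, which is 0.23 ± 0.08, and its limma adjusted p was 0.0613. wde, which encodes a cofactor of the histone H3 methyltransferase Eggless, was at -0.28 ± 0.12 and Su(var)3-7 at -0.50 ± 0.23.

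The filter decided little about which genes were described. Hcf was just inside it with intensities of 17.4, 26.6 and 20.2 in bam and 27.6, 19.0 and 23.9 in stwl bam, and Gat, a GABA transporter gene, was just outside with 21.7, 19.1 and 11.4 against 13.0, 22.9 and 25.5, where the 40th percentile of the arrays lay between 15.3 and 25.1. The other genes left out were NfI, Kif3C, onecut and fd102C. Of the 60 genes kept, 47 lay above background on all 6 arrays, and CG32006 lay below it on all 6. All 20 that passed lay above it on every array, though not always by much. On stwl bam replicate 2 mGluR read 36.1 and fuss 37.9, where background was 30.0.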

How the data were processed

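Biotin-labelled total RNA was hybridised to 6 arrays, 3 per genotype, grouped by the labels. The authors deposited 1 linear intensity for each probe set of an array. The submitters' processing notes name GCOS, without version or settings. The number of arrays limits the precision, and p-values measure the spread between samples that may be technical replicates.

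Intensities of all probe sets but 183 controls were quantile normalized, and log2 was taken after adding 7.9, the 25th percentile of the deposited intensities, so changes of dim genes are understated. Kept were 11477 probe sets that reached the 40th percentile of their array on 3 of 6 arrays. Each gene took the probe set of highest mean. The comparison used lmFit and eBayes (trend on intensity) of limma 3.58.1 under R 4.3.3. Its p-values are two-sided and were adjusted by Benjamini-Hochberg across the kept probe sets. Levels and changes are on this log2 scale, and summed marker levels are quantile-normalized intensities. The fit was tested on simulated arrays.

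The members and lists were chosen with earlier results of these data known. Named are stwl and bam, every chromosome 4 gene that passed, up to 3 others per group with the highest means, the 5 highest and 5 lowest means, the genes at the filter and the tested factors that act on chromosome 4. Further genes (myo, Actbeta, Ephrin, RhoGAP102A, Rnf11, CG11360, CG11155, CG1674, CG33978, CG31999 and those below the filter) were named after their values were seen. Neighbours and gene lengths came from a RefSeq table of Release 6. No coordinates are given, since the array files state no assembly. Alternatives changed the normalization, offset, filter, prior, weights, block, probe set, threshold and test, and left out each array.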

Additional observations from a re-analysis of the deposited data

How the results depend on the processing

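The 60 genes were refitted under 22 alternatives, 1 of them, median centring over dim probe sets too, chosen after seeing the data. Of 1312 refitted changes of single genes 1214 kept direction and call. Both counts stayed within 1.5 times of 5 higher and 15 lower under the other alternatives not named here. With intensities as deposited 9 were lower and the median change was -0.0036. Median centring over all probe sets gave 2 higher and 6 lower (8 in all), a prior without trend 3 and 8 (11), a threshold of 0.01 gave 3 and 7 (10), and a test without pooling 1 and 8 (9). Over all tested genes the higher and lower shares under these settings were 3.81% and 6.53%, 7.55% and 8.99%, 4.74% and 5.08%, and 5.18% and 5.40%, so fewer genes passed in general. Leaving out single arrays gave 4 to 6 higher, 7 to 15 lower, 11 to 21 in all, and medians of -0.194 to -0.0477. ATPsynbeta turned to -0.64 with its other probe set. The cause of these shifts was not tested.

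With the replicate number as a replicate block 6 were higher and 15 lower, and no call was lost. Deviations of arrays with the same number correlated at -0.05, -0.03 and 0.003. These values show no pairing by number, but with 3 arrays per genotype they cannot exclude it. Of the 20 calls, 10 were lost on leaving out at least 1 single array and 11 were lost without pooling across genes. Dim probe sets carry the least information: 13 of the 60 genes lay below background on some array.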
